A study of Mus musculus with 2 samples.

Results

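Of 52301 autosomal stretches of open DNA that both frontal cortex libraries held, 774 (1.48%) lay at the 3' end of a protein-coding gene. A region was formed by joining overlapping DNase I peaks of the libraries (by at least 1 bp) and was kept where both had contributed a peak, which gave 53623 regions over all chromosomes. It counted as a gene-end region when it was autosomal, came within 1 kb of the 3' end of a protein-coding gene record of GENCODE M21, lay over 1 kb from every annotated start site of any gene type, and had less than 50% of its bases in coding sequence. Footprints and sequence had no part in the choice. Height had no direct part, but low peaks were less often shared, so the need for both libraries favoured taller regions.

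DNase-seq cuts the DNA of isolated nuclei with DNase I and sequences the cut ends, so that dense cuts mark accessible chromatin. The 2 libraries came from frontal cortex of male B6CASTF1/J mice, the F1 hybrid of the C57BL/6J and CAST/EiJ strains, at 14 days of age, and per the labels each held tissue of 3 males. They were numbered as biological replicates 1 and 2, were separate tissue samples and carried 1 shared donor number, so the gap between them may be partly technical. Both belonged to 1 group, with no treated, mutant or other control group, so no test between groups was possible and errors are SDs of n = 2.

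The 3' end of a protein-coding gene record is its last annotated base. Near it the pre-mRNA is cleaved and given its poly(A) tail, directed by the poly(A) signal, an A-rich word on the RNA that lies shortly before the cleavage site. RNA polymerase II goes on for some distance past that site before it leaves the DNA. Open DNA downstream of or within genes is often bound by transcription factors or by CTCF, the zinc finger protein that, with cohesin, anchors chromatin loops, and a bound factor can shield a few bases from DNase I, which is seen as a footprint.

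The frontal cortex libraries held 73777 and 75012 autosomal peaks in replicates 1 and 2. The height of a peak is the authors' own signal value, on a scale set per library and not stated in the sources used here, with a median of 0.848 in replicate 1 and 0.801 in replicate 2 over all peaks. Over all autosomal protein-coding genes, 60.6% had a region of both libraries at a start site. Of marker genes for the labelled tissue, 19 of 21 genes of excitatory neurons and cortical layers and 27 of 27 synaptic genes had one, against 11 of 16 interneuron, 10 of 14 astrocyte, 7 of 14 microglial, 5 of 12 vascular and 5 of 16 oligodendrocyte genes. All 12 housekeeping and all 12 chromatin architecture genes had one too. In a tissue of many cell types, fewer cells of a type and less open DNA per cell cannot be told apart.

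The sequences of 5 regions are shown because they are the tallest gene-end regions of at most 300 bp that lie outside every annotated exon (GENCODE and RefSeq). They are the reference (C57BL/6J) bases of mm10 on the plus strand, 5' to 3', and capitals mark bases that lay in footprints of both libraries. Distances are from the gene end to the middle of a region, negative where it lies before the end. The region 308 bp downstream of the end of Sec14l2, a lipid-binding protein gene, was chr11:4096581-4096880. The regions of Fam120a (398 bp downstream) and Rpn1 (907 bp downstream), a subunit of the enzyme that attaches sugars to asparagine, were chr13:48878741-48878900 and chr6:88106081-88106340. That of Acvrl1, a receptor of the TGF-beta family (285 bp downstream), was chr15:101145481-101145760, and that of 1700029H14Rik (at -498 bp, in an intron) was chr8:13551121-13551340.
Sec14l2: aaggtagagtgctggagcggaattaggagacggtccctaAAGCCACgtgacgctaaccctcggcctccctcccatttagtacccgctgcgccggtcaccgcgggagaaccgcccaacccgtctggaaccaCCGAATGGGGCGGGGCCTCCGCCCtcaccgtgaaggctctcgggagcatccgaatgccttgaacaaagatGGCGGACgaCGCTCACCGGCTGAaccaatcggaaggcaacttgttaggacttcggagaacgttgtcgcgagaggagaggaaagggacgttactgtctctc
Fam120a: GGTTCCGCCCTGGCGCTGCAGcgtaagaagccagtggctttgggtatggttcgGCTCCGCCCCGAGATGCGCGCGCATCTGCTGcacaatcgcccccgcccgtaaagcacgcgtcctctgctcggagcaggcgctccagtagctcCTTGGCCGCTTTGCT
Rpn1: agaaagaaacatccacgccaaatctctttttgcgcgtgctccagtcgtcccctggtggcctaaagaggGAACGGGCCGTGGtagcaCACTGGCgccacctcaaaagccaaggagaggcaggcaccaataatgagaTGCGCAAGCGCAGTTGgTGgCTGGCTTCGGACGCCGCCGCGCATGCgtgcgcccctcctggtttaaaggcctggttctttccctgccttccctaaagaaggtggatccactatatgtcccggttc
Acvrl1: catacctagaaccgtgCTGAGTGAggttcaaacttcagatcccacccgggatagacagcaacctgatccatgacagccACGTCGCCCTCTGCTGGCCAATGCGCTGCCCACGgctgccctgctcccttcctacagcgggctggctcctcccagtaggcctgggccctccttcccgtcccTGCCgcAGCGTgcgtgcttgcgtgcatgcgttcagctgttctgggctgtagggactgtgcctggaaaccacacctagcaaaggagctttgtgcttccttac
1700029H14Rik: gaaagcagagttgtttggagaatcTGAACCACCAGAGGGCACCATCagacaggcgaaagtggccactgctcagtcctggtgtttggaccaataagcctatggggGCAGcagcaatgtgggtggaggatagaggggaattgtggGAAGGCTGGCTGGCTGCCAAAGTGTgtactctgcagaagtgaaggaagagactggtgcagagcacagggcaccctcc

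The first 3 are rich in the dinucleotide CG, with observed over expected CpG ratios of 1.01, 0.974 and 0.776. The other two each hold a CTCF word, and in both of them that word lies in a stretch of capitals.

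Short footprint sites are shown for the motif words met in the text, each 30 bases with the word in capitals and written on the strand on which the word reads as searched. The sites of C87436 (chr6:86472235-86472264, plus strand, cyclic AMP response element TGACGTCA), 1700008O03Rik (chr7:44360161-44360190, minus strand, EGR word GCGNGGGCG), Dpf1 (chr7:29317777-29317806, plus strand, RFX word GTTGCCAT) and Btd (chr14:31669319-31669348, plus strand, AP-1 word TGANTCA) come first. They are followed by CTCF words of Acvrl1 (chr15:101145555-101145584, minus strand), 1700029H14Rik (chr8:13551140-13551169, plus strand), Ckb (chr12:111668521-111668550, plus strand), the brain creatine kinase gene, and Dand5 (chr8:84815722-84815751, minus strand), which encodes a secreted inhibitor of Nodal signalling.
C87436: gccccgcgaggTGACGTCAccacgctgccg
1700008O03Rik: attgacgcacaGCGGGGGCGggttccagct
Dpf1: agccagctgtgGTTGCCATagcaacgggct
Btd: ccagcccgggtTGACTCAtcgcttgcaaag
Acvrl1: gcgcattggCCAGCAGAGGGCgacgtggct
1700029H14Rik: gaatctgaaCCACCAGAGGGCaccatcaga
Ckb: tgagcctgaCCAGCAGGTGGCagcacaaga
Dand5: cgcttttagCCACTAGGTGGCaccgcgtcc

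The 10 tallest gene-end regions by mean rank in both libraries differed widely in kind. The tallest lay in the 3' UTR of Cers5, a ceramide synthase gene (chr15:99735661-99736060), with a height of 26.3 in replicate 1 and 30.2 in replicate 2. The regions at the start sites of Cers5 itself were far lower, at 1.99 and 1.32. The next, in the 3' UTR of Lars2, the mitochondrial leucyl-tRNA synthetase gene (chr9:123461881-123462160), reached 18.3 and 19.9. Of its 32-base words, however, 61.4% occurred more than once in the autosomes, X and Y of the assembly. C87436 (chr6:86472201-86472520, in an exon, at -1139 bp from the gene end) had heights of 11.5 and 12.5 and was the most GC-rich of the 10, at 71.3%. Bcat2, which encodes the mitochondrial branched-chain aminotransferase (chr7:45589201-45589480), followed with 9.60 and 9.02, against 0.657 and 1.01 at its start sites. The regions of these 4 genes lay before the gene end, whereas those of Sec14l2 (8.87 and 8.93) and Fam120a (8.80 and 8.53) lay downstream of it.

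The region of Sf3b5, a subunit of the U2 snRNP (chr10:13008281-13008540), had heights of 7.93 and 6.86, and a curated RefSeq start site lay inside it that the GENCODE records used by the rule did not hold. Gm10722 (chr9:3002021-3002220) had 7.09 and 5.50, and all of its words were repeated, with a median of 26 copies. Slc16a5, of the monocarboxylate transporter family (chr11:115474021-115474240), had 5.68 and 5.92. The region across the end of 1700008O03Rik also lay at -351 bp from the end of Shank1, a scaffold gene of the postsynaptic density (chr7:44360021-44360420), with heights of 6.31 and 5.49 against 2.41 and 2.54 at the start sites of Shank1. In each of the 10, the libraries' heights lay close together beside the distance to the median gene-end region, which was 1.11 in both libraries.

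Heights of gene-end regions lay between those of other open regions. Their median was 1.11 in replicate 1 (quartiles 0.800 and 1.67) and 1.11 in replicate 2 (0.776 and 1.69). The median of regions near start sites was 1.65 and 1.64, so the gene-end median was 0.675 ± 0.00086 (SD, n = 2) times as high. Against intergenic regions (0.872 and 0.801) the ratio was 1.33 ± 0.079, against regions in gene bodies (0.979 and 0.876) 1.20 ± 0.094, and against regions mostly in coding exons (0.860 and 0.834) 1.31 ± 0.027 (SD, n = 2 each). All 3 ratios were above 1 in both libraries. Similar heights extended beyond the last kb, among regions over 1 kb from start sites and not mostly coding. Medians were 1.10 and 1.11 between 1 and 2 kb before the nearest end, and 1.11 and 1.08 between 1 and 2 kb after it. Between 5 and 10 kb they were 1.06 and 1.04 before the end and 1.12 and 1.08 after it. Between 10 and 50 kb after the end they were 0.979 and 0.926. Among peaks above the median height of their library, the ratio to intergenic regions was 1.07. The median gene-end region was 222.5 bp wide (37 to 1221 bp).

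**Figure D1:**
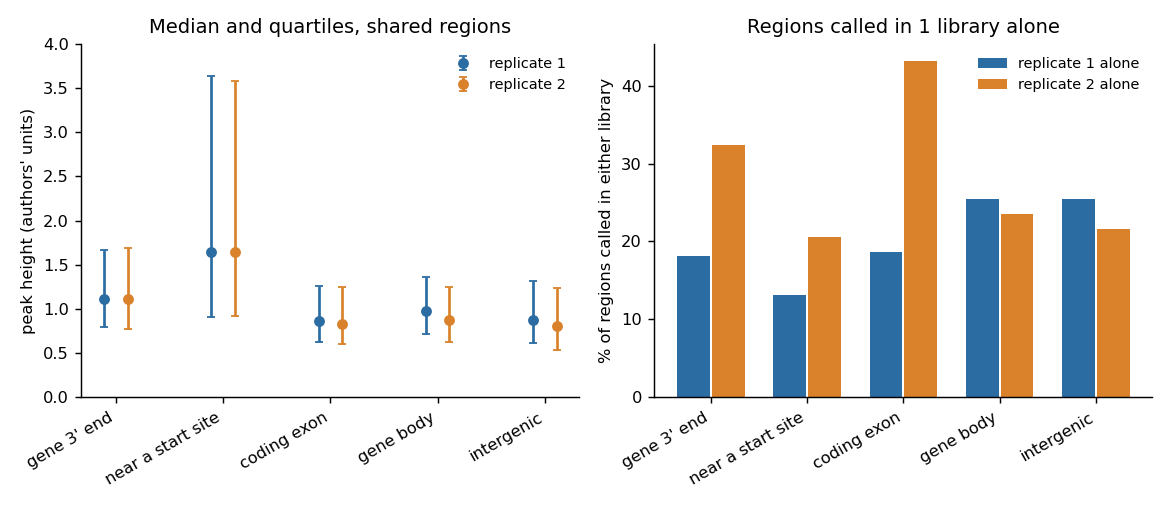
Left, median peak height (points) with quartiles (bars) of regions shared by both libraries, by class and library, in the authors' units. Right, regions called in 1 library alone as a percentage of those called in either. Gene-end medians (1.11 in both libraries) lie under those near start sites and over the rest, and gene-end regions found in 1 library alone came more from replicate 2.

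The libraries gave gene-end regions similar heights. Over the 774 regions, Spearman's rho was 0.892 and Pearson's r of log2 heights 0.920, as descriptions across regions that share the same 2 libraries and their depth. Divided by its height in replicate 1, the replicate 2 height had a median of 0.00 on the log2 scale. That median was also 0.00 near start sites, -0.01 in coding exons, -0.13 in gene bodies and -0.10 in intergenic regions. Heights differed more than 2-fold in 9 gene-end regions (1.16%). The share was 1.62% over all classes, 0.394% near start sites and 2.74% in intergenic regions. The furthest below was 4930522H14Rik (chr4:109505021-109505180), with 0.693 in replicate 1 and 0.259 in replicate 2, a log2 ratio of -1.42. Tamm41 (chr6:115004761-115004960), whose product acts in cardiolipin synthesis, had 1.44 and 0.626 (-1.21), and Ccdc114 (chr7:45949201-45949460), a gene of ciliary dynein docking, had 0.884 and 0.392 (-1.17). In the other direction stood Gas8 (chr8:123537081-123537300), another cilium gene, with 0.143 and 0.309 (1.11), and Tsc22d1 (chr14:76506551-76506820) with 0.609 and 1.17 (0.94). Neurod6 (chr6:55676721-55677220), which encodes a transcription factor of excitatory neurons, had 0.561 and 1.06 (0.92). In each of these 6 regions the lower of the heights was 0.626 or less, under the median peak of both libraries.

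**Figure D2:**
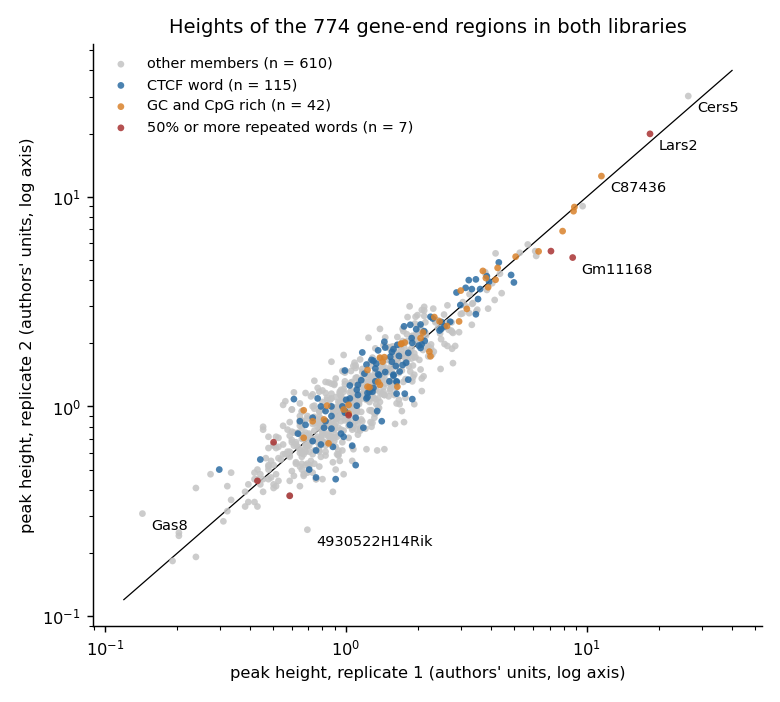
Peak height of each of the 774 gene-end regions in replicate 1 (horizontal) and replicate 2 (vertical), in the authors' units on log axes, with the line of equal heights. The points follow the line (rho 0.892), Cers5 and Lars2 stand at the top, and the 42 GC- and CpG-rich regions lie mostly in the upper part.

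Counting regions called in either library, 1566 met the rule and 49.4% of them (95% exact binomial interval 46.9 to 51.9) were called in both. That share was 56.5% over all classes, 66.3% near start sites, 52.9% in intergenic regions, 51.0% in gene bodies and 38.1% in coding exons. Of the rest, 284 had a peak in replicate 1 alone and 508 in replicate 2 alone, a ratio of 1.79. The same ratio was 1.56 near start sites and 2.32 in coding exons, but 0.927 in gene bodies and 0.849 in intergenic regions. Gene-end regions of replicate 2 alone had a median GC content of 55% and those of replicate 1 alone 52.4%, and GC content moved the same way in every other class; its part in the imbalance was not tested. Height went with sharing: in replicate 1, 35.1% of gene-end regions in the lowest of 4 equal classes of all heights were also in replicate 2, and 98.4% of those in the highest class.

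Footprints, a readout that the rule did not use, were frequent. In replicate 1, 85.8% of gene-end regions held at least 1 footprint middle, in replicate 2 92.4%, and 81.8% did so in both. The share in both was 82.4% near start sites, 76.2% in gene bodies, 72.0% in intergenic regions and 69.2% in coding exons. The regions held 1726 footprints in replicate 1 and 2124 in replicate 2, with a median length of 10 bp in both, and 62.6% and 49.2% of them overlapped a footprint of the other library. Footprints were also found more in taller peaks: gene-end regions with a footprint in both libraries had median heights of 1.28 and 1.24, and the 28 with none had 0.519 and 0.509. The most footprints, counted in the library with fewer, were in Ebpl (chr14:61330641-61331520; 9 and 13), C87436 (8 and 8), Zfp653, a zinc finger gene (chr9:22054401-22055080; 10 and 8), and, tied with C87436 and Zfp653, Shf (chr2:122348561-122349020; 8 and 11). Ebpl was also among the 3 widest, with B4galt5, a galactosyltransferase gene (chr2:167297181-167298401), at 1221 bp and Gstm6, a glutathione S-transferase gene (chr3:107939421-107940231), at 811 bp. B4galt5 was wide but low, with heights of 0.239 and 0.409 and footprints in replicate 2 alone.

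Along the gene, 310 of the regions lay wholly before the end, 51 spanned it and 413 lay wholly downstream. The middle of 443 regions (57.2%) was downstream, 276 middles were in a 3' UTR, 383 outside every coding gene, 87 in introns, 18 in other exons and 10 in coding sequence. The base of the gene end itself was a local low: per Mb of eligible sequence (over 1 kb from every start site and outside coding sequence), there were 9.90 region middles in the last 100 bp before the end and 12.3 in the first 100 bp after it. Density was highest, at 32.3 per Mb, between 200 and 300 bp downstream. GC content had its low at the same place, 36.3% in the last 100 bp before the end against 44.9% between 100 and 200 bp after it; its part in the dip was not tested. The poly(A) word AATAAA, searched on the gene strand in the last 40 bases before the end, was present for 56.9% of all 20807 genes and 56.98% of those with a gene-end region, but for 21 of the 51 genes whose end lay in one (41.2%).

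**Figure D3:**
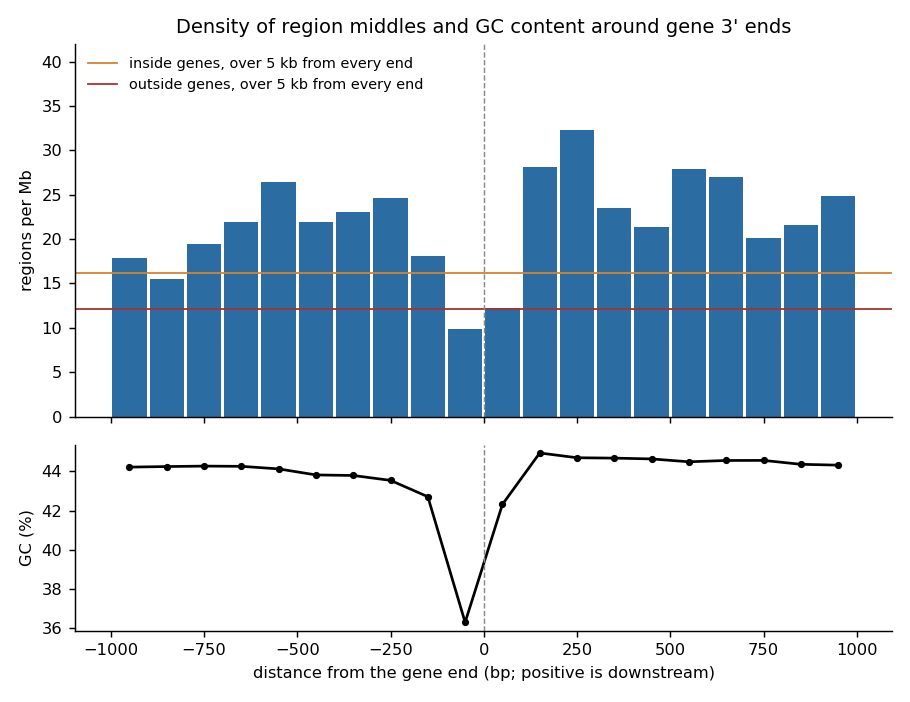
Upper panel, region middles per Mb of eligible sequence in 100-bp steps around gene 3' ends (bars), with the densities over 5 kb from every end (lines); lower panel, GC content of the same sequence. Both have their lowest value in the last 100 bp before the end (9.90 per Mb, 36.3% GC).

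Within 1 kb of gene ends the density was 21.96 regions per Mb, against 16.2 inside genes and 12.1 outside genes over 5 kb from every end. By library, the ratio to the sequence inside genes was 1.26 in replicate 1 and 1.60 in replicate 2, and that to the sequence outside genes 1.70 and 2.19. Both sides of these ratios differed between the libraries: replicate 2 had more peaks per Mb near ends (37.96 against 31.1 in replicate 1) and fewer over 5 kb away, inside genes (23.8 against 24.6) and outside them (17.3 against 18.3). The higher density was not limited to the last kb: between 2 and 2.5 kb downstream it was 28.5 per Mb, and between 4.5 and 5 kb still 23.2 per Mb, whereas upstream it was 17.5 per Mb between 4.5 and 5 kb before the end.

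The CTCF word, a core consensus searched on both strands in the 200 bp about each middle, was present in 115 gene-end regions, 14.9% (95% exact interval 12.4 to 17.6, which covers counting error only). The share was 8.53% in intergenic regions, 7.87% in gene bodies, 5.99% in coding exons and 2.19% near start sites. It was 0.138% in windows of 200 bp about all 18157 gene ends that lay over 1 kb from every start site. Those windows are centred on the end, open or not, where GC content had its low, so that share is not a matched background. The reversed word occurred in 0 of 774 (95% exact interval up to 0.475%). Unlike the CTCF word it must hold a CG, which is scarce in these regions (median CpG ratio 0.269). It is therefore not a matched control. With a looser word, 21.8% of gene-end regions matched, against 13.5% of intergenic ones. The share was no higher within 1 kb of the end than a few kb away. It was 12.7% in regions up to 1 kb before the nearest end and 15.9% up to 1 kb after it, 16.7% and 16.4% between 1 and 2 kb, 14.5% and 14.8% between 5 and 10 kb, and 10.13% and 10.005% between 10 and 50 kb, before and after the end in turn.

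**Figure D4:**
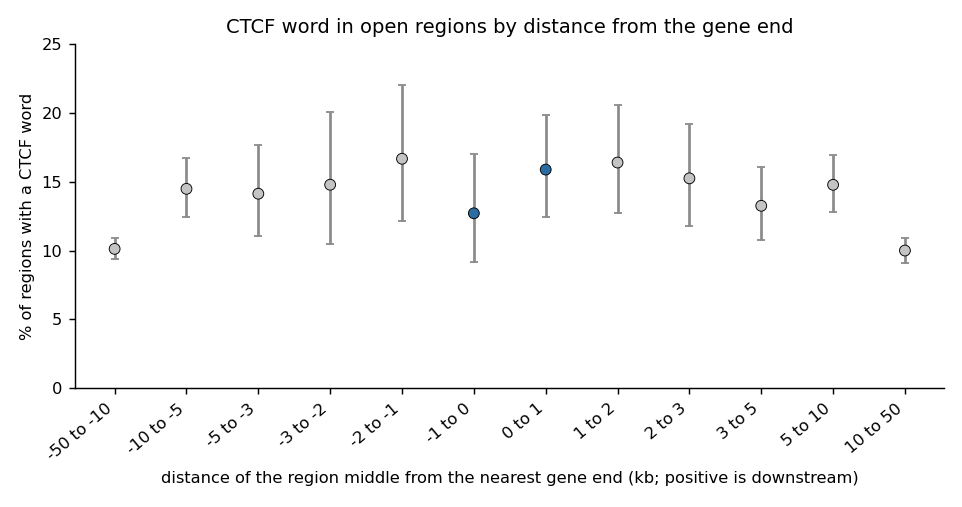
Percentage of open regions over 1 kb from start sites and not mostly coding that held the CTCF word, by distance of the region middle from the nearest gene end, with 95% exact binomial intervals; the bins within 1 kb are blue. Shares are 12.7% to 16.7% out to 10 kb on both sides and about 10% beyond.

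CTCF words of gene-end regions coincided with footprints. Of 118 regions with a word anywhere in them, 87 had it in a footprint of both libraries, and per base the word was 25.2 times as dense inside footprints as outside in replicate 1 and 38.4 times in replicate 2. The word read along the gene in 67 and against it in 51. Regions with the word in the middle window were taller, with medians of 1.36 and 1.41, against 1.07 and 1.08 without it. Acvrl1 (4.31 and 4.86), 1700029H14Rik (4.85 and 4.24), Ckb (chr12:111668441-111668720; 4.980 and 3.903) and Dand5 (chr8:84815641-84815860; 3.85 and 4.18) were among the tallest of them. The share with the word was 5.19% (7 of 135) in the lowest of 4 equal classes by height of all shared regions and 20.4% in the highest. The intergenic share was 11.8% in the highest class. In the lowest it was 4.59%, so near the gene-end share that a difference cannot be read. In the other classes the gene-end share was the higher. The gap was least in the second, at 11.7% (26 of 222) against 8.98%, and rests on few regions. In the third the gene-end share was 19.2% against 12.7%. In 4 equal classes by GC content it was above the intergenic share in the lower 3 (18.6% against 9.10% in the lowest) and not in the highest, where it was 4.35% (3 of 69) against 5% (38 of 760).

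Other words, searched on both strands in the same window, gave shares nearer to those of other distal regions; words can overlap, as GGGCGG can lie inside an EGR match. The SP/KLF word GGGCGG was in 13.4% of gene-end regions, 46.7% of those near start sites and 9.39% of intergenic ones. The neuronal E-box CAGATG was in 21.4%, against 24.97% of intergenic regions and 12.8% of all gene ends. The AP-1 word TGANTCA was in 8.01%, against 11.3% of intergenic regions and 5.83% of all gene ends. The EGR word was in 9 regions (1.16%), against 0.704% of intergenic regions, 3.21% of all shared regions and 7.07% of those near start sites. The RFX word was in 13 (1.68%), against 2.41% of intergenic regions and 2.08% of all. TGACGTCA was in 3 (0.388%), against 0.536% of intergenic regions and 1.27% of all. The ETS word CCGGAAGT was in 2 (0.258%), against 0.325% of intergenic regions, 1.95% of all and 4.50% near start sites. The poly(A) word AATAAA was in 8.14% of gene-end regions, 11.0% of intergenic regions and 9.85% of regions in gene bodies. It was in 74.2% of all gene ends in windows of the same length. Those windows are centred on the end, next to the poly(A) signal, so the 2 kinds of window cannot be compared. This limit also holds for the E-box and AP-1 shares of all gene ends. A match is a word in the reference sequence and was not measured as binding.

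A group of 42 regions had at least 55% GC and a CpG ratio of at least 0.65, features often met at promoters. Their median heights were 1.90 and 1.99, above the 1.11 of all gene-end regions, and 0 of them held a CTCF word. That word was scarce in the highest of 4 equal GC classes too. There it was in 4.35% of gene-end regions (3 of 69), 5% of intergenic regions and 0.928% of those near start sites. With 42 regions, 0 cannot be told apart from such shares. C87436, Sec14l2, Fam120a, Sf3b5, 1700008O03Rik and Rpn1 belonged to the group. Among all 774, 34 (4.39%) lay within 1 kb of a RefSeq start of any kind and 6 (0.775%) within 1 kb of a curated one. These shares were near those of other distal regions: 5.43% and 0.674% in intergenic regions, and 4.21% and 0.495% in gene bodies. The median heights of the 6 were 2.33 and 2.52.

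In all, 802 of 20807 autosomal protein-coding gene records (3.85%) had a gene-end region. The share was 4.57% (552 of 12090) where the gene also had an open start site in both libraries and 3.15% (250 of 7943) where it had none, among genes with at least 200 eligible bases near the end. Gene ends facing another gene's end on the opposite strand had a region in 4.88% of cases (90 of 1844; exact interval 3.94 to 5.97), against 3.91% of other ends (3.64 to 4.21), and the intervals overlapped. By gene length, genes in 4 equal classes had one in 2.83% (shortest), 3.97%, 4.89% and 4.31% (longest) of cases. Most regions, 718, were at 1 gene record, and the largest number at 1 region was 22. Those 22 were Diaph1 and records of the gamma protocadherin genes, which end close together. The gene shares above therefore count that locus many times.

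Heights at the end and at the start of a gene did not follow each other. Over the 552 genes with both, Spearman's rho across genes was 0.046 in replicate 1 and 0.063 in replicate 2, and genes are not independent replicates. The median end height of these genes was 1.15 and 1.16, and the median start height 3.11 and 2.91. In 97 genes (17.6%) the end region was the taller in both libraries, with Cers5, Bcat2, Sec14l2, Fam120a and Shank1 among them.

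**Figure D5:**
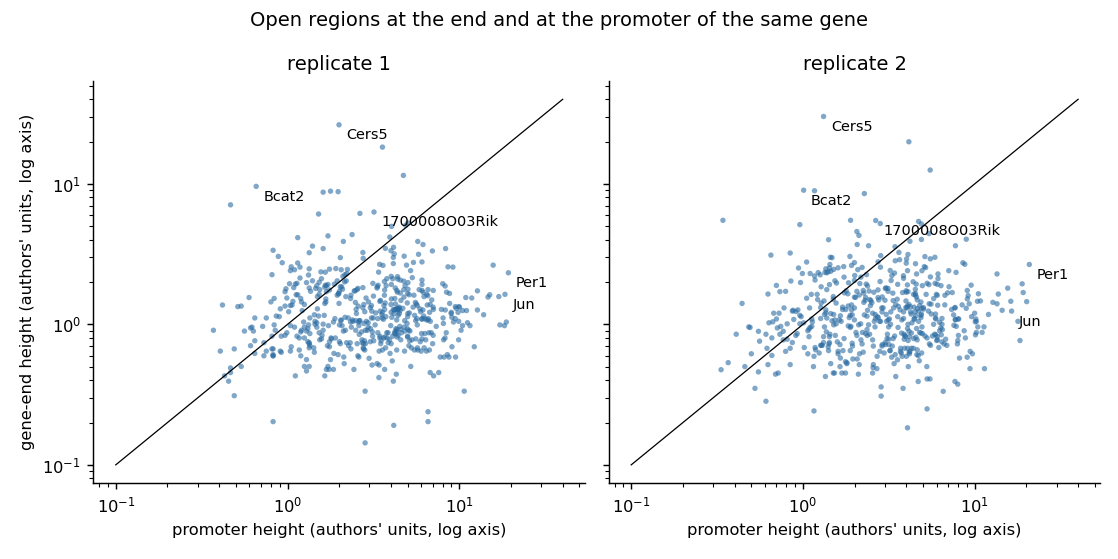
Height of the gene-end region (vertical) against the highest region at the gene's own start sites (horizontal) in each library, in the authors' units on log axes, for 535 regions assigned to the nearest gene end; the line marks equal heights. Most points lie under the line, and Cers5 and Bcat2 lie far over it.

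Among immediate early genes, which neurons switch on after activity, 4 of 24 (16.7%) had a gene-end region, beside 3.85% of all genes. Per1, a clock gene (chr11:69110835-69111040, 978 bp downstream), had heights of 2.33 and 2.67. Ier2 (chr8:84661562-84661820, in the 3' UTR) had 1.62 and 1.57, Jun, a subunit of AP-1 (chr4:95049961-95050220, in the 3' UTR), 1.64 and 1.24 with no footprint, and Egr4 (chr6:85510541-85510780, 460 bp downstream) 1.33 and 1.38. Each was lower than the region at its own start sites, which reached 19.3 and 20.8 for Per1 and 18.5 and 16.4 for Jun. Egr4, lowest of the 4 by mean rank, is named outside the rule for named genes, after its values were seen. With 4 genes, no test of this share was made.

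Synaptic genes had 2 of 27, Shank1 and Vamp2, the SNARE of synaptic vesicles (chr11:69092471-69092593, 148 bp downstream; 2.02 and 1.67). Astrocyte genes had 2 of 14: Fgfr3, a fibroblast growth factor receptor (chr5:33737981-33738240; 1.22 and 1.08), and Slc1a3, the glutamate transporter GLAST (chr15:8633534-8633627; 0.633 and 0.742), neither with an open start site in both libraries by the peaks used. Of vascular genes 1 of 12 had one, Kdr, the VEGF receptor (chr5:75933501-75933980; 0.943 and 0.959), and of excitatory neuron and layer genes 1 of 21, Neurod6. Interneuron (0 of 16), oligodendrocyte (0 of 16), microglial (0 of 14), housekeeping (0 of 12) and chromatin architecture genes (0 of 12) had none. At a share of 3.85% these counts were too small for differences between the lists to be read.

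Regions just inside and just outside each limit of the rule overlapped in height. Just inside 1 kb from the gene end were Stx8 (998 bp; 0.955 and 1.12) and Prcc (998 bp; 1.27 and 1.09), and just outside were regions of Myh11 (1002 bp; 0.633 and 0.609) and Dlgap3 (1002 bp; 1.11 and 1.28). Just over 1 kb from a start site were Icam4 (1013 bp; 2.41 and 2.37) and Ramp2 (1027 bp; 1.89 and 1.32), with Hnrnpul1 (996 bp; 1.41 and 1.74) and Rex1bd (991 bp; 1.27 and 1.30) under it. For coding sequence, Ebi3 (49.6%; 2.14 and 2.52) and 1700008O03Rik (48.3%) were inside, and Gm815 (50%; 0.800 and 1.12) and Lgals7 (50.5%; 1.71 and 2.16) outside. Of 1804 shared regions within 1 kb of a gene end, 927 were left out for a start site within 1 kb and 103 more for their coding share.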

How the data were processed

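Per the deposited file descriptions, the authors gave each library, unpooled and in assembly mm10, a longer and a shorter peak list, footprints and a cut-rate track. The aligner, callers and versions are not given in the sources used here. Heights are signal values as deposited, which the authors scaled for each library by an unstated method; the smallest was 0.0836 in replicate 1 and 0.0500 in replicate 2. False discovery rates (q-values, all below 0.05) fill the cut-rate track that the authors deposited, and every deposited footprint has the same q-value entry, 0.01, so none has a strength of its own. Read totals were not used, so the depth is unknown, heights have no counting interval, and precision is the gap between libraries.

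From these, the longer lists were joined as described, and each region took its highest peak per library. The remaining regions were classed in order: within 1 kb of a start site, 50% or more coding, gene end, inside a protein-coding gene, or intergenic. A footprint belonged to a region that held its middle. Sequence (C57BL/6J) came from the mm10 reference and genes from GENCODE M21. Reads of the CAST/EiJ allele that map less well could lower heights, which was not tested. Shares have 95% exact (Clopper-Pearson) intervals covering counting error only. The analysis used Python 3.11.15, numpy 2.4.6, pandas 2.3.3 and scipy 1.17.1, and interval and motif functions were tested on simulated data.

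Named were the 10 tallest by mean within-library rank, the 3 widest, the 3 with most footprints, the 3 highest and 3 lowest log2 ratios, up to 3 per gene list (Egr4 and the tied Shf were added after their values were seen), and 2 on each side of each limit. Sequences shown were up to 5 of the tallest regions outside exons (at most 300 bp) and up to 8 footprint sites. The members, the 10 gene lists and the 12 motifs were chosen with earlier results of these data known. The alleles of the hybrid were not separated. Alternatives changed the peak list, the libraries, the overlap, the 3 distances and limits of the rule, the start sites and the height.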

Additional observations from a re-analysis of the deposited data

How the results depend on the processing

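Of 98 values recomputed under 10 alternatives and 2 added after seeing the data, 69 stayed within a set tolerance of the main value and 29 moved. The tolerance was a factor of 1.5 for the number of regions, 0.05 for rho, 1 SD between libraries for the height ratio and the 95% interval of counting for the density ratio and shares; the first 2 are settings, not errors. Number of gene-end regions (774): 382 from the shorter lists, 455 at 500 bp, 1386 at 2 kb and 496 above the median height. Share of genes with a region (3.85%): 1.93% from the shorter lists, 3.24% with a reciprocal overlap of at least 50%, 2.33% at 500 bp, 6.78% at 2 kb, 3.21% at 2 kb from start sites, 4.18% with start sites of gene records only, 3.54% with no coding base and 2.52% above the median height. Share with a footprint in both libraries (81.8%): 93.2% from the shorter lists, 86.5% with reciprocal overlap and 95.4% above the median height. CTCF share (14.9%): 19.9% from the shorter lists, 18.1% above the median height and, added, 21.8% with the looser word. Density near ends over that outside genes (1.81): 1.65 with no coding base and 2.80 above the median height. Height ratio to intergenic regions (1.33): 1.07 above the median height. Downstream share (57.2%): 61.9% with no coding base. Share at ends on both strands (6.59%): 8.87% at 2 kb. With 1 library at a time (without replicate 1 or 2), the ranges were 1057 to 1275 regions, height ratio 1.29 to 1.38, footprint share 75.7% to 80.2%, downstream share 54.98% to 55.8%, both-strand share 6.91% to 8.08%, gene share 4.99% to 5.69%, CTCF share 11.5% to 12.9% and density ratio 1.69 to 2.18; Spearman's rho then has no value. With 1 library, the footprint share counts footprints of that library only, so it is not comparable with the 81.8% in both libraries. Whether it stayed or moved therefore has no meaning. The stricter lists, limits and heights keep fewer regions by construction. Other causes were not tested. Unknown depth limits the weak peaks, of which fewer were shared. Without regions of repeated sequence, added after seeing the data, all 9 values stayed within these tolerances. No paired analysis was possible because there was 1 group.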

Other observations

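Gene-end regions were on all 19 autosomes, from 19 on chromosomes 12 and 18 to 81 on chromosome 11, where they made up 2.14% of shared regions against 0.828% on chromosome 12. For 100 protein-coding genes there were 4.94 such regions on chromosome 11 and 2.55 on chromosome 14.

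In 7 gene-end regions, 50% or more of the 32-base words occurred more than once in the autosomes, X and Y of the assembly. The mitochondrial genome and unplaced sequence were not searched, so copies there are not counted. Besides Lars2 and Gm10722 these were Gm11168 (chr9:3006701-3006940; heights 8.73 and 5.13, median of 29 copies), Gm3435, Ceacam1, 9030025P20Rik and Gm21188, whose heights were 1.03 or less in both libraries. The assignment of reads among such copies cannot be seen from the deposited peaks. Among the other 767 regions the medians were 1.11 and 1.11.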
